A study of Homo sapiens with 2 samples.

Results

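The genes described here are 10 transcripts that record and restrain signalling by ERK, the last kinase of the RAS-RAF-MEK-ERK cascade. They were taken by name: the phosphatases DUSP4, DUSP5 and DUSP6, the inhibitors SPRY2, SPRY4, SPRED1 and SPRED2, and the transcription factors ETV1, ETV4 and ETV5. All 10 were found among the 19775 genes of the array, in 27 probe sets whose annotation names that gene alone, and the probe set that was brightest on average over the 2 arrays stands for its gene. The cells were HCT15, an established human colorectal adenocarcinoma line. In the first culture the cells received Cas9 directed at ARID3B and carry the genotype label ARID3B knockout. The second culture was of the same line and carries the genotype label control. The sources used here do not state what, if anything, the control cells received, or whether either culture was a clone or a pool. Each culture was measured on 1 array, so that no test was possible, and every difference below is the knockout-labelled minus the control value on the log2 scale.

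Growth factor receptors and RAS activate ERK by way of RAF and MEK, and active ERK raises the transcription of its own inhibitors. DUSP proteins remove the phosphates that activate MAP kinases, Sprouty (SPRY) proteins interfere with the steps between receptor and RAF, and SPRED proteins bring a RAS-inactivating protein to the membrane. The ETV genes encode the PEA3 subfamily of ETS transcription factors, which act downstream of receptor and RAS signals. Several of these genes are repressed by capicua (CIC), a DNA-binding protein that ERK signalling inactivates. In colorectal cancer cells, in which this cascade is often active, the levels of such transcripts are commonly read as a measure of its output.

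RefSeq promoter windows (build GRCh38.p14, 250 bases before to 50 bases after a transcript start) were found for 6 of the 10 members, in 14 windows. The windows of DUSP6, ETV1 and SPRY4 are shown because these genes differed most between the arrays among those 6. Capitals mark the octamers to which capicua is known to bind, TGAATGAA, TGAATGGA, TCAATGAA and TCAATGGA, on either strand. The last 2 octamers were added to the search after the sequences were seen. The DUSP6 window lies at chr12:89352452-89352751, the ETV1 window, the second of 6 partly overlapping ones, at chr7:13991376-13991675 and the SPRY4 window at chr5:142324198-142324497, all on the minus strand and written 5′ to 3′ along the gene.
DUSP6: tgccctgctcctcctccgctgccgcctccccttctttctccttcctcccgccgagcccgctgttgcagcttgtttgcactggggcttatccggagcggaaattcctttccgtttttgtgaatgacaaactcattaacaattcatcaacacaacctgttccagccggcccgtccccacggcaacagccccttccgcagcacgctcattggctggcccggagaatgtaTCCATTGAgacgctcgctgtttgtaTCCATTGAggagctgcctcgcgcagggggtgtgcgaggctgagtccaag
ETV1: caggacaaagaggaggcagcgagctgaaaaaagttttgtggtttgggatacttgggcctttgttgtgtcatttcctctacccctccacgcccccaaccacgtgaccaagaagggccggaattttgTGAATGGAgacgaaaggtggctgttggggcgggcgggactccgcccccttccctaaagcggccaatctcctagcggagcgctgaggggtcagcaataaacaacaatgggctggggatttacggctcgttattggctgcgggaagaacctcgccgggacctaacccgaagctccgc
SPRY4: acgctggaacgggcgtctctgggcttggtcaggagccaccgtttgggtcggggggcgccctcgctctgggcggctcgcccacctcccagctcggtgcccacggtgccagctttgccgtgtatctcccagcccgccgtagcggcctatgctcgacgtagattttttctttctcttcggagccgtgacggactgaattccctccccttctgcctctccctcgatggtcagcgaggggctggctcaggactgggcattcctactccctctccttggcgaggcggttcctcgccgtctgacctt
The DUSP6 window holds 2 matches, both read as TCCATTGA along the gene, which start at positions 227 and 252 of the 300 bases. The ETV1 window holds 1, TGAATGGA at position 126, and its other 5 windows hold none. None of these letters is in the windows of SPRY4, SPRY2, SPRED1 and SPRED2. Both DUSP6 matches are of the octamers added after the sequences were seen, and with the first 2 octamers alone DUSP6 has no match. Of 35116 windows of all genes 2.63% hold either of the first 2 octamers and 3.77% hold any of the 4, so that the second share is no independent measure of how uncommon the DUSP6 matches are. DUSP6 and ETV1, the members with a match among the 6 that were searched, differed in opposite directions between the arrays. DUSP4, DUSP5, ETV4 and ETV5 had no window and were not searched. These matches describe the letters of the window and are no evidence of binding.

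Of the 10 members, 4 were at least 2-fold higher on the knockout-labelled array (DUSP5, DUSP6, SPRY4 and ETV5) and 1 was at least 2-fold lower (ETV1). Over the 12841 compared genes 1.05% were at least 2-fold higher and 3.79% at least 2-fold lower. A gene was compared when its higher value reached a floor of 4.59, which is the median value over the non-control probe sets, and both values of every member lay above it. The other 5 members differed by 0.48 or less. DUSP4, SPRY2, SPRED1 and SPRED2 each differed by less than the scaled median absolute deviation (MAD) of differences among genes of similar expression, a spread between genes that is given here in the absence of replicates and is not replicate error. The higher and the lower members did not separate by role, since phosphatases and inhibitors held 3 of the 4 higher genes and the ETV family held both a higher and a lower one.

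**Figure D1:**
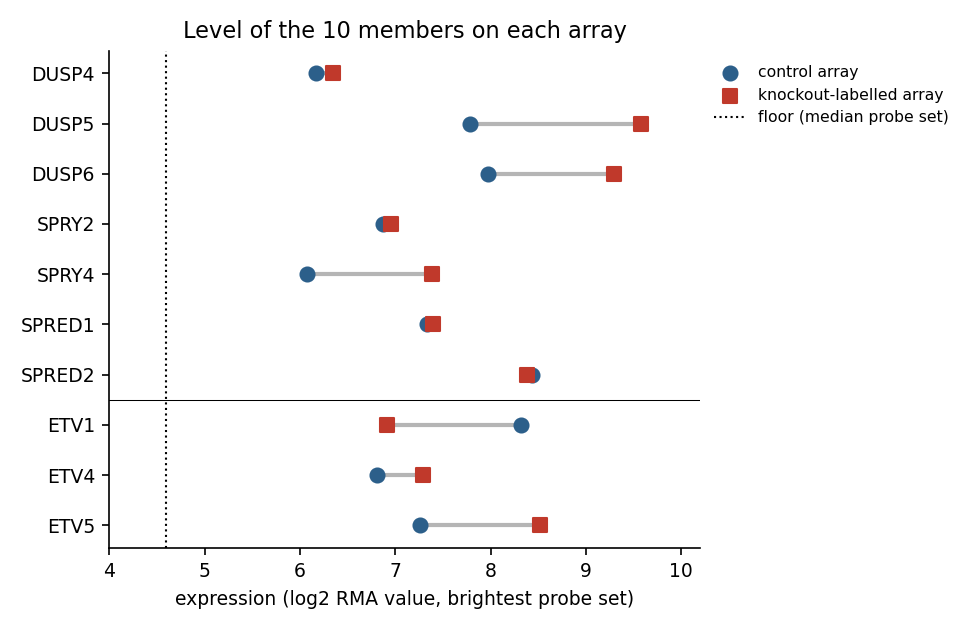
Log2 RMA expression of the brightest probe set of each member (x axis) on the control array (circles) and the knockout-labelled array (squares), with 1 array per group and a dotted line at the floor of 4.59. DUSP5, DUSP6, SPRY4 and ETV5 lie to the right on the knockout-labelled array, ETV1 lies to the left, and DUSP4, SPRY2, SPRED1 and SPRED2 nearly coincide.

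Facts of the arrays bear on every direction given here. ARID3B, the targeted gene, was not lower but higher on the knockout-labelled array, at 6.09 against 5.12, a difference of 0.97 in its single probe set, or 0.42 with 64 linear units added to both arrays. Whether that probe set covers the edited stretch is not known, so it may be no check. The array is therefore named by its label throughout. The poly-A spike-ins, transcripts of bacterial origin that are usually put into the RNA ahead of labelling, were 2.28-fold lower over 24 probe sets on that array (mean difference -1.19). Scaled on them, every difference moves up by that amount, the median of compared genes moves from 0.04 to 1.22, and 9137 genes are at least 2-fold higher and 44 lower, in place of 135 and 487. On that scale 9 of the 10 members were at least 2-fold higher and ETV1 stood at -0.22. Differences below describe a gene against the rest of its array unless the spike-ins are named. Of 8 markers of colon epithelium 7 were above the floor, among them EPCAM at 12.2 on both arrays, and KRT20 was under it. The leukocyte marker PTPRC (2.72 and 2.48), the fibroblast marker COL1A2 (3.84 and 3.96) and the endothelial marker CDH5 (2.07 and 2.17) were under the floor on both arrays. Above it were 2 of 5 fibroblast markers (COL1A1 at 7.12 and 6.87, and DCN near the floor), 3 of 5 leukocyte markers (CD14 at 6.54 and 6.51, CD79A and CD3E) and 1 of 4 endothelial markers (PECAM1 at 5.73 and 5.55). By its brightest probe set none of the listed markers that could be compared differed 2-fold. The 2 COL1A1 probe sets above the floor disagreed, at -2.47 and 0.25. Averaged over all its probe sets COL1A1 differed by -0.70. In such bulk samples fewer cells with a transcript and less of it per cell cannot be told apart.

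The ERK phosphatases DUSP5 and DUSP6 were both higher on the knockout-labelled array, and DUSP4 was nearly level. DUSP5, a nuclear phosphatase that acts on ERK, stood at 9.58 on the knockout-labelled array and 7.78 on the control. This difference of 1.80, or 3.49-fold, was 4.64 times the scaled MAD of 0.388 among genes of similar expression, and 16 of the 12841 compared genes differed further upward. DUSP5 has 1 probe set, so that no other probe set could be set beside it.

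DUSP6, a cytoplasmic phosphatase with strong preference for ERK, stood at 9.29 against 7.97 (here and below, the knockout-labelled value comes first). The difference of 1.33 was 2.51-fold and 3.42 times the same scaled MAD of 0.388, with 55 genes further upward. All 3 probe sets of DUSP6 were higher. The other probe sets read 8.99 against 8.01 and 8.85 against 7.76, so that their differences, 0.97 and 1.09, were somewhat smaller than that of the brightest.

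DUSP4, a nuclear phosphatase that acts on ERK, JNK and p38, stood at 6.35 against 6.17, a difference of 0.17. A second probe set of DUSP4 gave nearly the same, 6.17 against 6.0, and the dimmest read 5.0 against 5.38, a difference of -0.38. The 3 DUSP4 probe sets thus lay on both sides of 0 and averaged -0.01, within the scaled MAD of 0.395. Among these phosphatases the values of DUSP5 and DUSP6 were therefore far apart between the arrays and those of DUSP4 were not.

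Of the 4 inhibitors that act upstream of RAF, 1 was higher on the knockout-labelled array. SPRY4 stood at 7.38 against 6.07. This difference of 1.31, or 2.48-fold, was 3.0 times the scaled MAD of 0.436, with 59 genes further upward, and it rests on 1 probe set, of a kind that can match several transcripts. With 64 linear units added to both arrays, which dampens the differences of dim probe sets, it was 0.81.

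SPRY2, the other Sprouty gene of the list, stood at 6.96 against 6.87 in its only probe set, a difference of 0.08. SPRY2 thus lay within the scaled MAD of 0.436 that SPRY4 exceeded. SPRED1 stood at 7.40 and 7.33, a difference of 0.07, while its dimmer probe sets differed by 0.58 (6.32 against 5.73) and by -0.30 (4.78 against 5.09). SPRED2 stood at 8.38 and 8.44, a difference of -0.06. Its other 2 probe sets were under the floor and held identical values on both arrays, 3.98 and 3.32, as did 3678 non-control probe sets in all. Differences within the spread do not show that SPRY2, SPRED1 and SPRED2 were equal in the 2 cultures. These 3 genes and DUSP4 lay close to 0 only relative to the other genes, since on the spike-in scale they stood between 1.13 and 1.36.

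**Figure D2:**
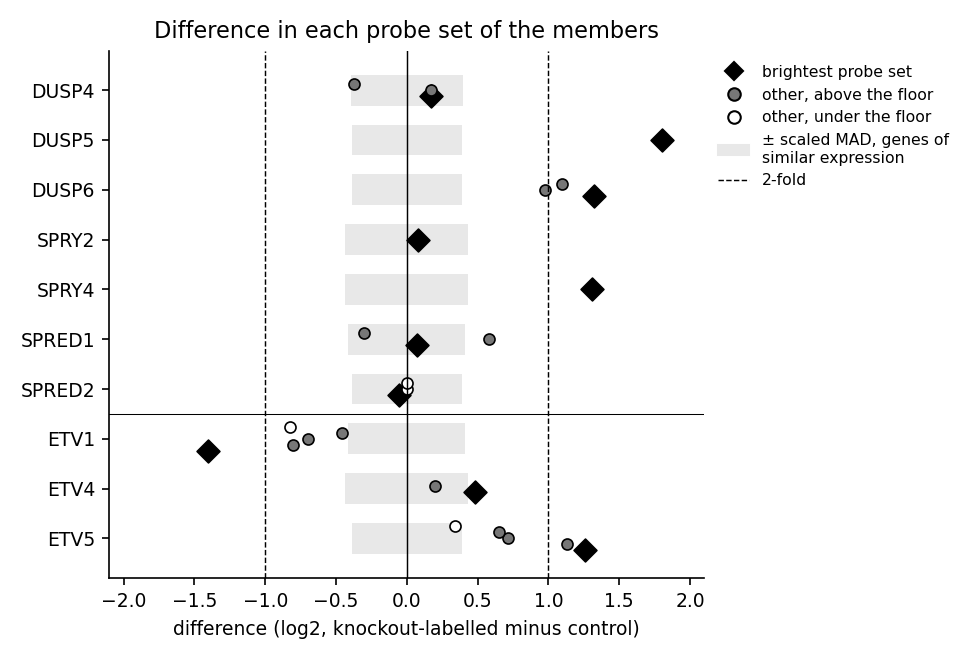
Difference between the arrays (log2, x axis) in each of the 27 probe sets of the 10 members. Diamonds are the brightest probe set of a gene, grey circles others above the floor, open circles those under it, bars the scaled MAD of genes of similar expression on either side of 0, and dashed lines 2-fold. All probe sets of DUSP6, ETV4 and ETV5 lie above 0 and all of ETV1 below it (on the spike-in scale the brightest alone), while those of DUSP4 and SPRED1 lie on both sides.

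The 3 ETV transcription factors did not move together, since ETV5 was higher, ETV1 lower and ETV4 between them. ETV5 stood at 8.52 on the knockout-labelled array against 7.26, a difference of 1.26, or 2.39-fold, 3.25 times the scaled MAD of 0.387, with 71 genes further upward. ETV5 was higher in all 4 of its probe sets above the floor, by 0.65 to 1.26, and 2 of the 4 passed 2-fold. The size depended on the probe set, with 7.96 against 6.83 in the second brightest, 6.63 against 5.92 in the third and 6.12 against 5.47 in the fourth. The dimmest ETV5 probe set, under the floor, read 4.25 against 3.90.

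ETV1 stood at 6.91 on the knockout-labelled array against 8.32. This difference of -1.41, 2.65-fold lower, was -3.41 times the scaled MAD of 0.412, and 195 of the 12841 compared genes differed further downward. All 4 ETV1 probe sets above the floor were lower, with differences from -1.41 to -0.46, and the brightest alone passed 2-fold. The others read 5.59 against 6.39, 5.25 against 5.95 and 5.33 against 5.78, and the dimmest, under the floor, read 3.23 against 4.05. As the mean of its 5 probe sets ETV1 differed by -0.84, short of 2-fold. On the spike-in scale the brightest probe set stayed below 0 and the other ETV1 probe sets turned positive.

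ETV4 stood at 7.29 on the knockout-labelled array against 6.81, a difference of 0.48, or 1.4-fold. Its other probe set read 6.27 against 6.07, a difference of 0.20. Both ETV4 values were thus above 0, and the brighter was 1.11 times the scaled MAD of 0.436, a size that 1187 compared genes exceeded upward. The span from ETV1 to ETV5 was -1.41 to 1.26. The phosphatases spanned 0.17 to 1.80 and the Sprouty and SPRED inhibitors -0.06 to 1.31.

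**Figure D3:**
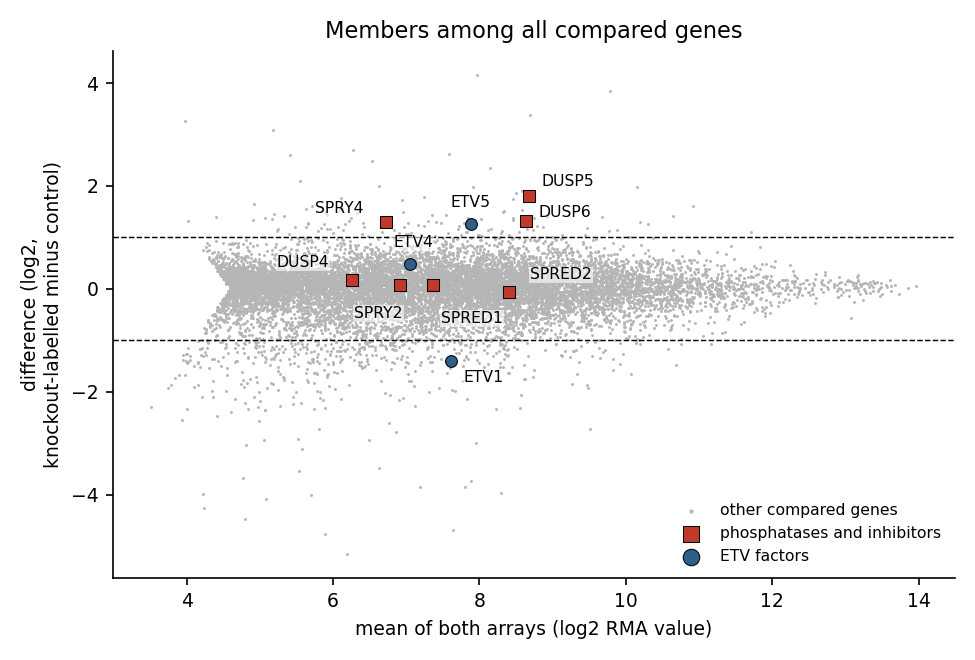
Difference between the arrays (log2, y axis) against the mean of both arrays (log2 RMA value, x axis) for the 12841 compared genes, with phosphatases and inhibitors as squares, ETV factors as circles and 2-fold as dashed lines. DUSP5, DUSP6, SPRY4 and ETV5 lie above the upper line, which 1.05% of genes reach, and ETV1 below the lower line, which 3.79% reach.

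Set against each other, the phosphatases and inhibitors had a median difference of 0.17 over 7 genes and the ETV factors 0.48 over 3, beside 0.04 over all compared genes. The phosphatase and inhibitor median thus lay 0.31 below that of the ETV factors (gap -0.31). The gap turned to 0.21 with a higher floor, at the 75th percentile of probe set values, which leaves out DUSP4 and raises the first median to 0.70. No contrast between the groups can be read from these medians, since each group holds genes past 2-fold and genes near 0 or of the opposite sign.

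The closest relatives of the members that could be compared did not differ 2-fold, except on the spike-in scale, where 4 of the phosphatases and 1 of the Sprouty and SPRED genes were 2-fold higher. Of 7 other MAP kinase phosphatases 6 were compared and none passed 2-fold in either direction, with a median of -0.11. DUSP10, which acts on JNK and p38, differed by 0.63 (5.97 against 5.33) and was higher in both of its probe sets. DUSP7, a cytoplasmic ERK phosphatase like DUSP6, differed by -0.55 (6.93 against 7.48), and DUSP2 by -0.46 (5.50 against 5.97). DUSP7 thus lay on the other side of 0 from DUSP6. On the spike-in scale both DUSP7 and DUSP2 turned positive, as did the median, to 1.08. Of the other Sprouty and SPRED genes SPRY1 differed by -0.48 (6.23 against 6.71) and SPRED3 by 0.09, and SPRY3 was under the floor. The first of these turned positive on the spike-in scale.

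Among 12 other negative regulators of RAS and receptors 9 were compared, with a median of 0.12. Beside 1.05% of all compared genes, 1 of the 9 passed 2-fold upward. This was ERRFI1, an inhibitor of the EGF receptor family, at 11.3 against 9.94, a difference of 1.41 or 2.66-fold in its single probe set. Genes of the cascade itself differed little in the 13 of 18 that were analysed here. None passed 2-fold, 10 lay above 0 and 1 below, and the median was 0.22. HRAS differed by -0.66 (8.59 against 9.25), the kinase MAP2K1 (MEK1) by 0.51 (10.1 against 9.63) and the scaffold KSR1 by 0.49 (5.90 against 5.41). The 3 KSR1 probe sets above the floor ran from -0.07 to 0.49. On the spike-in scale HRAS turned positive and 12 of the 13 genes were at least 2-fold higher, with a median of 1.41. Of the 9 other negative regulators 8 were at least 2-fold higher on that scale, with a median of 1.31. Of 10 receptor tyrosine kinases 1 passed 2-fold downward, FGFR2, beside 3.79% of all compared genes. FGFR2 stood at 5.73 against 7.01, a difference of -1.27, and the list median was 0.03. The probe sets of FGFR2 above the floor disagreed, from -1.27 to 0.42, and averaged over all its probe sets the gene differed by -0.25. Those of EGFR ran from -0.52 to 1.65 and those of IGF1R from -1.05 to 0.10, with the brightest under 2-fold in both genes. On the spike-in scale 8 of the 10 receptors were at least 2-fold higher, and FGFR2 stood at -0.08.

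The median of 11 other transcripts known to follow ERK activity was 0.27. None was 2-fold lower and 3 were 2-fold higher, beside 1.05% of all compared genes. The 3 were the AP-1 subunit FOSL1 at 8.06 against 6.76 (1.30), the immediate early factor EGR1 at 10.1 against 8.87 (1.18) and FOS at 5.92 against 4.86 (1.06). EGR1 was higher in all 3 of its probe sets, by 0.86 to 1.26, and FOSL1 and FOS have 1 probe set each. With 64 linear units added, FOS stood at 0.42 and FOSL1 at 0.94, so that 1 gene of the list was 2-fold higher. Scaled on ribosomal protein genes FOS stood at 0.96 and 2 genes were 2-fold higher. On the spike-in scale 10 of the 11 were. The other 8 genes of the list, given here for completeness, were EPHA2 (0.97), PLAUR (0.50), PHLDA1 (0.27), EPHA4 (a bound only), IER3 (0.06), SPHK1 (0), CCND1 (-0.12) and MYC (-0.33). EPHA4 stood at 4.74 against 4.51, and the control value was under the floor, so that it was at least 1.11-fold higher. The probe sets of PHLDA1 disagreed, from -0.76 to 1.18, and CCND1 and MYC turned positive on the spike-in scale.

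Of 23 other ETS transcription factors 16 were compared, with a median of -0.16, 6 above 0 and 10 below. EHF, an ETS factor of epithelia, passed 2-fold downward, beside 3.79% of all compared genes. It stood at 7.31 against 8.90, a difference of -1.59 or 3.01-fold. All 5 EHF probe sets were lower, with differences from -2.01 to -0.98, and EHF stayed below 0 on the spike-in scale, at -0.40. ETV1 was thus not the single lower gene of its superfamily. By their brightest probe sets the factors that repress or degrade ETV proteins showed no 2-fold difference in 5 genes, with a median of -0.13. Probe sets above the floor ran from -0.90 to 0.10 in ATXN1 and from -0.87 to -0.02 in ATXN1L. CIC, which encodes capicua, stood at 5.81 and 5.94 in its single probe set, a difference of -0.13 that was within the scaled MAD of 0.342. The ubiquitin ligase COP1 differed by -0.24 and its partner DET1 by -0.53 (4.62 against 5.16), the latter close to the floor. On the spike-in scale the medians of these lists were positive, at 1.03 for the ETS factors and 1.06 for the ETV repressors and degradation factors. There 8 of the 16 ETS factors and 3 of the 5 other genes were at least 2-fold higher.

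**Figure D4:**
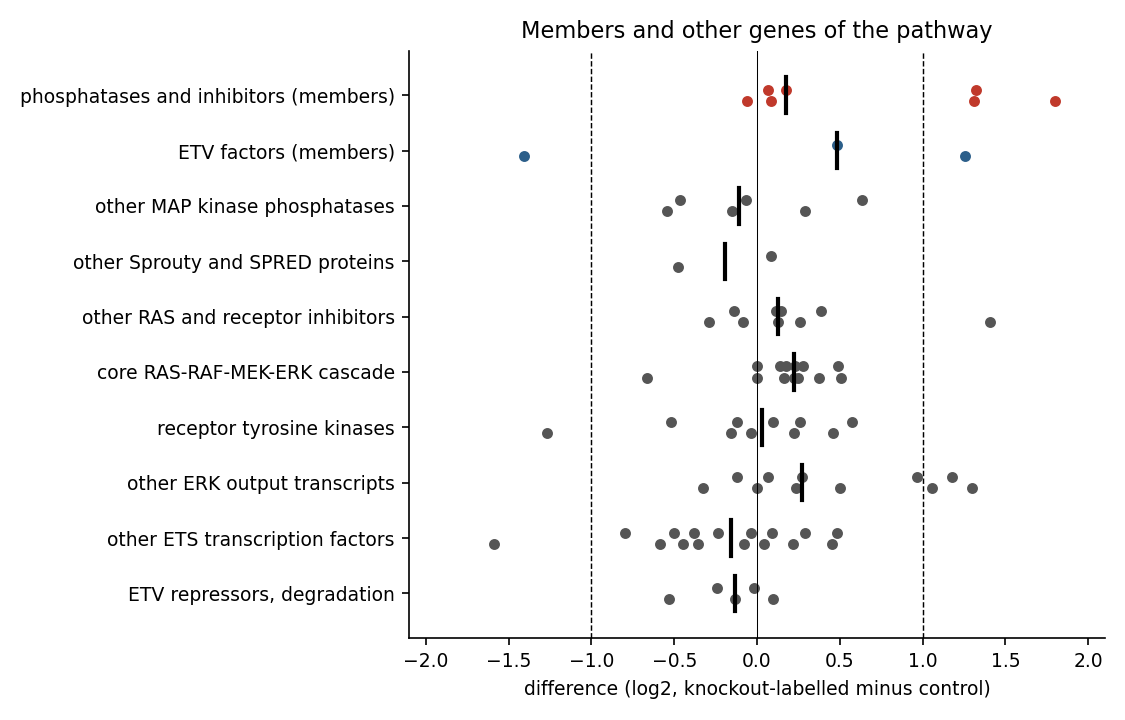
Difference between the arrays (log2, x axis) of each compared gene in the member groups and in 8 lists of other pathway genes, with black bars at list medians and dashed lines at 2-fold. Outside the members ERRFI1, FOSL1, EGR1 and FOS lie past 2-fold upward and FGFR2 and EHF downward.

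The processing moved the members unequally. Over 10 alternatives the differences of DUSP5 and DUSP6 stayed past 2-fold, from 1.55 to 2.99 and from 1.13 to 2.51. The choices of floor could not alter either gene, since both lie far above each floor. The choices of probe set could not alter DUSP5, which has 1 probe set. Such alternatives are no check on these values. ETV5 was 0.65 where probe sets marked as matching several transcripts were left out, and 0.82 as the mean of its probe sets, and it also fell short of 2-fold with 64 linear units added. DUSP4, SPRY2 and SPRED1 crossed 0 in at least 1 alternative, so that no direction is given for them. SPRED2 lay between -0.15 and -0.02 in all alternatives except the spike-in scale. These values are within its scaled MAD of 0.388, and no direction is given for it either.

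**Figure D5:**
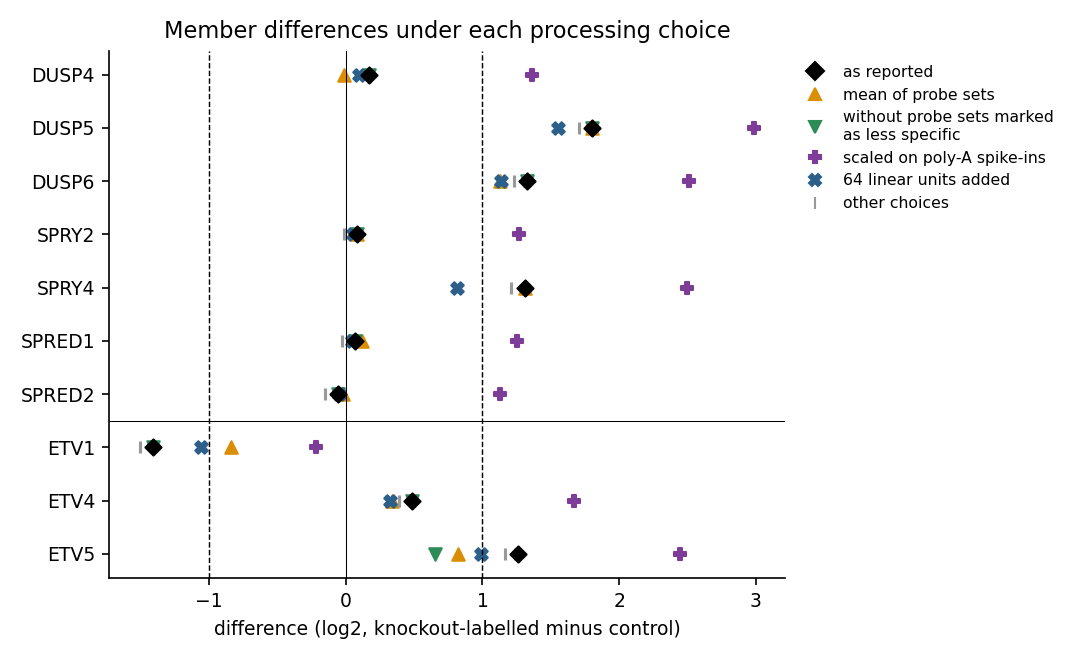
Difference of each member (log2, x axis) as reported (diamonds) and under each processing alternative, with 4 alternatives drawn in their own symbols, the others as grey ticks and 2-fold as dashed lines. Scaling on the poly-A spike-ins moves every member up by 1.19, which leaves ETV1 alone below 0, and leaving out less specific probe sets or averaging probe sets brings ETV5 under 2-fold, as does adding 64 linear units.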

How the data were processed

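The deposited values are log2 expression values of the authors, and the submitters' processing notes name RMA as the tool, without a version. The method subtracts background, makes the distributions of the arrays equal (quantile normalisation) and summarises each probe set. It removes differences in total RNA and compresses those of dim probe sets. Of 54613 non-control probe sets 41091 had 1 gene symbol in the platform annotation, 1801 several and 11721 none, and only the first kind was used. Of these, 41037 matched a RefSeq gene table (GRCh38.p14) by Entrez identifier, and 0 symbols changed. The scaled MAD was taken in 10 bins of mean expression (0.255 to 0.436). With 1 array per group there is no test, and precision is limited by that number.

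The members and lists were chosen with earlier results of these data known. The text names all members, ARID3B, every list gene past 2-fold, and otherwise up to 3 list genes with the largest differences. Outside this rule are the rest of the ERK output list, given whole, cell type markers, SPRY3, ELF3, SPRY4-IT1 and DUSP5P1. EGFR, IGF1R, ATXN1 and ATXN1L were also named outside it, because their probe sets disagreed. The procedure was tested on simulated data. Alternatives were no floor, a higher floor (6.60), averaged probe sets, leaving out probe sets marked _x_at or _s_at, 3 other scalings (array medians, ribosomal protein genes, spike-ins), a loess trend removed (span 0.3), 64 units added, values raised to the floor, and thresholds of 1.5-fold and 3-fold. Promoters were searched for 4 capicua octamers, AGGAAG (ETS), TGAGTCA (AP-1), TGACGTCA (CRE), TGATGNAA (ATF4) and GCGGGGGCG (EGR1) on both strands. Python 3.11.15, pandas 2.3.3 and statsmodels 0.14.6 were used.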

Additional observations from a re-analysis of the deposited data

How the results depend on the processing

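Of the values that the alternatives gave for members, groups and counts, 127 moved by less than the spread (for counts, by at most 1.5 times) and 25 by more. Part of the 127 was fixed in advance, so that the tally is no measure of stability. Leaving out the floor or raising values to it could not change members that lie above it. The 3 other scalings shift all genes alike and could not change the gap. With the spike-ins as scale, DUSP4 stood at 1.36, DUSP5 at 2.99, DUSP6 at 2.51, SPRY2 at 1.27, SPRY4 at 2.49, SPRED1 at 1.26, SPRED2 at 1.13, ETV1 at -0.22, ETV4 at 1.67 and ETV5 at 2.45, with group medians of 1.36 and 1.67, and 9 members were 2-fold higher and 0 lower. With the higher floor the median of the phosphatases and inhibitors was 0.70 and the gap 0.21, since DUSP4 left the group. As means of probe sets ETV1 stood at -0.84 and ETV5 at 0.82, which left 0 members 2-fold lower. With the probe sets of lower specificity left out, ETV5 stood at 0.65 and SPRY4 had no value, so that 2 members were 2-fold higher. With 64 units added SPRY4 stood at 0.81, and 2 members were 2-fold higher. At 3-fold 1 member was higher and 0 lower. No paired analysis was possible because each group holds 1 array. DUSP5, SPRY2 and SPRY4 rest on 1 probe set each.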

Other observations

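SPRY4-IT1, a long non-coding RNA transcribed from an intron of SPRY4, was higher on the knockout-labelled array in its brighter probe set, at 6.06 against 5.43, a difference of 0.63. Its other probe set was under the floor on both arrays, at 3.26 and 3.31. The size of 0.63 was below the 1.31 of SPRY4 itself, and both exceed the scaled MAD of genes of similar expression, 0.342 and 0.436. The DUSP5 pseudogene DUSP5P1 differed by 0.24 (6.81 against 6.58), within its scaled MAD of 0.436, so that the difference of DUSP5 had no counterpart of that size in the probe set of its pseudogene.

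The epithelial ETS factor ELF3 differed by -0.80 (6.11 against 6.91), and all 3 of its probe sets were lower, with differences from -1.49 to -0.80. ELF3 turned positive on the spike-in scale, at 0.39. It was named after its values were seen, as the list gene next to EHF in size.

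Among the other motifs searched, the ETS hexamer AGGAAG was found in 9 of the 14 member windows (64.3%), beside 33.6% of all windows. These 9 windows belong to 5 of the 6 genes, DUSP6, SPRED1, SPRED2, SPRY2 and ETV1, beside 38.1% of all genes. The windows of 1 gene can overlap, as those of ETV1 do, and the difference in share was not tested. The 6 genes hold 14 windows and all 27305 genes 35116. Each member thus has more windows on average in which a match can fall, so that the shares of genes are not alike. TGAGTCA, the AP-1 site, and TGATGNAA, the ATF4 composite site, were each found in 1 window of SPRED2, beside 4.95% and 3.62% of all windows. GCGGGGGCG, an EGR1 site, was found in 1 window of SPRY2 (5.07% of all windows), and TGACGTCA in no member window (1.85%).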
